A study of Rattus norvegicus with 6 samples.

Results

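The mRNAs described here encode structural proteins of the M-band and ubiquitin ligases of striated muscle. They were named as Myom1, Myom2, Myom3, Lrrc39, Trim54, Trim55, Trim63 and Fbxo32, and every row of the deposited mRNA table whose RefSeq transcript belongs to one of these rat genes was taken. Of the 8 genes named, 7 were measured, with 1 probe each, among 19942 genes tested. No row of that table carried a transcript named as Myom3, so its level was not analysed here. The genes were chosen with the response to isoproterenol known, so their changes are given as a description.

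The samples were cultured ventricular cardiomyocytes of newborn Sprague-Dawley rats 1 to 3 days old. Of these, 3 samples had received isoproterenol, which activates beta-adrenergic receptors, at 10 µM for 24 h, and 3 control samples were untreated. Per the labels, a pre-attachment step removed fibroblasts, and the cells of both arms were moved to serum-free medium before exposure. No genetic change is named for either arm. The labels of both arms mention passages and the series text transfection, neither of which is explained. No label gives the litter or culture of a replicate, so p-values measure only the spread between these samples.

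The M-band lies in the middle of the sarcomere, where myomesins cross-link thick filaments and bind titin. The muscle RING-finger proteins encoded by Trim63 (MuRF1), Trim55 (MuRF2) and Trim54 (MuRF3) are ubiquitin ligases that associate, to differing degrees, with titin near the M-band and with microtubules. The F-box protein encoded by Fbxo32 (atrogin-1) is the substrate adaptor of an SCF ubiquitin ligase, and Trim63 and Fbxo32 are widely used markers of muscle atrophy and targets of FoxO transcription factors.

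Levels are log2 intensities minus the 75th percentile of the same array, so a level of 0 is the array's 75th percentile of signal. They compare arrays for 1 gene and cannot rank genes against each other. No sample label names a slide, so arrays with the same scan time in their file headers were taken as 1 slide. On that basis slide 1 held isoproterenol replicate 1 and control replicates 1 to 3, and slide 2 held isoproterenol replicates 2 and 3. On slide 1 between 97.7% and 99.8% of mRNA probes were well above background, against 61.3% and 70.9% on slide 2. Negative-control probes had median signals, before background subtraction, of 30 scanner units in isoproterenol replicate 1 and 87 and 84 in replicates 2 and 3. These medians were 27 to 28 in the controls, and no spot was saturated. The scanner intensities of members given below are background-subtracted, so they are not on the scale of these medians. A change within slide 1 sets 1 isoproterenol array against the 3 controls, and a fit with slide as a block gives the same estimate. Within slide 1 the spread comes from the 3 controls alone, and the lone isoproterenol array is assumed to vary as they do. Of 12 cardiomyocyte markers tested all 12 were well above background on all 6 arrays. In bulk RNA, fewer cells of a type and less RNA per cell cannot be told apart.

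Of the 7 measured members, 4 fell with isoproterenol (Myom2, Lrrc39, Fbxo32 and Trim63), none rose and 3 did not pass the threshold (Myom1, Trim54 and Trim55). The threshold was an adjusted p of 0.05 in limma, with Benjamini-Hochberg adjustment over all 19942 genes. In that fit 5.93% of all genes fell and 10.2% rose, so that 16.1% passed in either direction. Because the members were chosen on this contrast, nothing is read from their count. In 5 of the 7 members all isoproterenol arrays lay below all control arrays, as they did for 15.8% of all genes. The same 4 members were past the threshold with slide as a block and, with that lone array, within slide 1, where 3.64% and 2.73% of all genes fell, 3.66% and 2.5% rose, and 7.29% and 5.23% passed in either direction. They also fell after quantile normalization, where 5.98% of all genes fell and 7.59% rose, 13.6% together. Groups that did not overlap, in either direction, were seen for 41.4% of all genes.

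**Figure D1:**
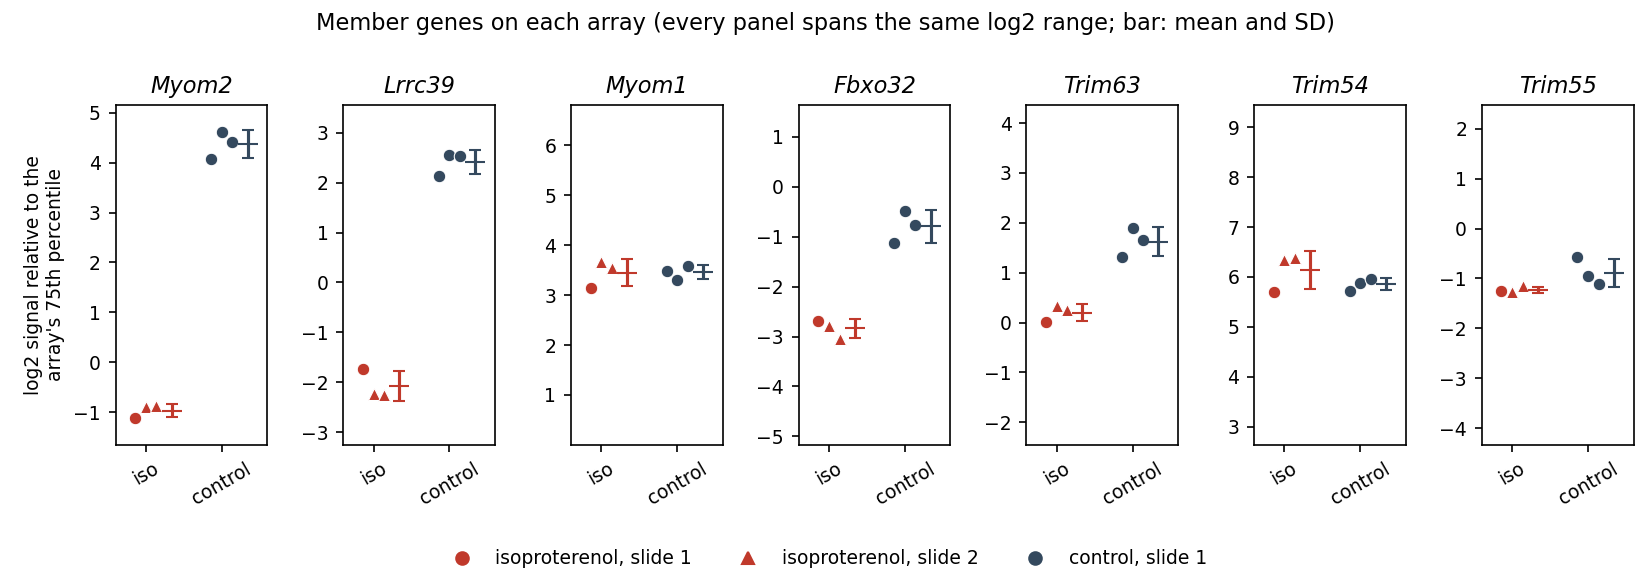
Log2 level relative to the array's 75th percentile for each measured member, 1 point per array (triangles for slide 2), isoproterenol left of control, with a bar for the mean and SD of each group (n = 3). Myom2, Lrrc39, Fbxo32 and Trim63 form separate groups of points with isoproterenol lower, whereas the groups of Myom1 and Trim54 overlap.

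Among the M-band genes, Myom2, which encodes M-protein, a cross-linker of thick filaments, had levels of -1.12, -0.90 and -0.88 on the isoproterenol arrays, against 4.08, 4.62 and 4.42 on the control arrays. The groups lay far apart and the spread within each was small. The means were -0.97 ± 0.13 with isoproterenol and 4.38 ± 0.27 in controls (SD, n = 3 each). This was a change of -5.34 ± 0.20 on the log2 scale (SE, 95% CI -5.82 to -4.87), or a 40.6-fold lower level with isoproterenol (95% CI 29.2 to 56.4). As scanner intensities, the Myom2 probe read 275.5, 111.1 and 135.3 with isoproterenol and 9270, 14350 and 11830 in controls. It had the 3rd largest fall of all genes tested. The change of Myom2 was -5.50 within slide 1, so the array that shared a slide with the controls showed as large a difference as the other two.

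Lrrc39 encodes a leucine-rich repeat protein, also called myomasp, that binds myosin heavy chain at the M-band. It had levels of -1.73, -2.24 and -2.26 with isoproterenol and 2.13, 2.56 and 2.54 in controls. The isoproterenol arrays were again all far below the controls. The mean was -2.07 ± 0.30 with isoproterenol and 2.41 ± 0.25 in controls (SD, n = 3 each), a change of -4.49 ± 0.23 (SE, 95% CI -5.02 to -3.95) or a 22.4-fold lower level with isoproterenol (95% CI 15.4 to 32.5). Its fall was the 8th largest, and the change within slide 1 was -4.14. With normexp background correction the change of Lrrc39 was -3.67, a smaller fall than any in that interval. Normexp, here and below, added an offset of 50 to every spot, which weighs most on dim probes. How far the offset accounts for smaller changes was not tested. The scanner intensities of Lrrc39 on slide 2 were low, at 43.94 and 52.13, so the size of the fold change is less certain. Both Myom2 and Lrrc39 were well above background on all 6 arrays and stayed past the threshold in all 17 alternative analyses. Of these, the fit without a filter on dim probes tested the same 19942 genes and gave the main result again, so it adds no check.

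Myom1 encodes myomesin-1, the myomesin found in all striated muscle. Its levels were 3.15, 3.66 and 3.54 with isoproterenol and 3.49, 3.31 and 3.58 in controls, and the groups overlapped. The mean was 3.45 ± 0.27 with isoproterenol and 3.46 ± 0.14 in controls (SD, n = 3 each), and the change was -0.01 ± 0.20 (SE, 95% CI -0.49 to 0.46). The interval holds changes of either sign. The direction depended on the scaling, with -0.28 after quantile normalization, -0.32 within slide 1 and 0.05 with scaling on the array median.

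Promoter sequence of Lrrc39, which fell, and of Myom1, which did not pass, is shown to set a changed M-band gene beside one with little measured change. Each line is the 250 bases before the annotated start, read 5′ to 3′ on the gene's strand, from RefSeq on build GRCr8, at chr2:207200789-207201038 (plus strand) for Lrrc39 and chr9:118366896-118367145 (plus strand) for Myom1. Capitals mark every match to the motifs searched.
Lrrc39: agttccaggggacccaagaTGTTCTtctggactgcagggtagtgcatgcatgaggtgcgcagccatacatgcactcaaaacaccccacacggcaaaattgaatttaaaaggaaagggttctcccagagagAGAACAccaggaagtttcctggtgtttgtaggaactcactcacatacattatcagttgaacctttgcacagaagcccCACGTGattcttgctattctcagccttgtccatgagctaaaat
Myom1: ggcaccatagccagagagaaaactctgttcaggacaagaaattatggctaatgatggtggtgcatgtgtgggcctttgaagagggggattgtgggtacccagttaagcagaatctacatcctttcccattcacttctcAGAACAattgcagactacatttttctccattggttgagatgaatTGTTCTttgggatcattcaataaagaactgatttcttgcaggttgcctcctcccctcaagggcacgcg
The motifs were searched on both strands, and matches of different motifs could overlap. The motif of FoxO factors was GTAAACA. E-boxes, bound by basic helix-loop-helix factors, were searched as CAGCTG and also in the form CACGTG. The half-site of the cAMP response element was TGACG, and the motif of GATA factors was AGATAA. For the glucocorticoid receptor the half-site was TGTTCT, and for other nuclear receptors it was AGGTCA. The MEF2 motif and the CArG box of serum response factor were searched by their consensus. Counting the start as following position -1, Lrrc39 had CACGTG at -43 to -38 and TGTTCT half-sites at -231 to -226 and, on the minus strand, at -120 to -115. Myom1 had TGTTCT half-sites at -68 to -63 and, on the minus strand, at -112 to -107. Of 33469 promoters of the same length, 5.59% held CACGTG and 17.5% held TGTTCT. The half-site was thus present in both genes, and a match is a description of letters only.

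Among the ligases, Fbxo32 had levels of -2.68, -2.78 and -3.05 with isoproterenol and -1.13, -0.48 and -0.76 in controls. All isoproterenol arrays were lower, and the Fbxo32 probe was well above background on 2 of them and on all 3 control arrays. The mean was -2.84 ± 0.19 with isoproterenol and -0.79 ± 0.33 in controls (SD, n = 3 each), a change of -2.05 ± 0.22 (SE, 95% CI -2.58 to -1.52) or a 4.13-fold lower level with isoproterenol. The scanner intensities of Fbxo32 were 93.49, 30.1 and 30.11 with isoproterenol and 249, 418.2 and 326.7 in controls. The change of Fbxo32 was -1.89 within slide 1. With normexp background correction and its offset, the change of Fbxo32 was -0.98 and still past the threshold.

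Trim63 had levels of 0.01, 0.33 and 0.25 with isoproterenol and 1.31, 1.90 and 1.66 in controls, so the groups did not overlap. The mean was 0.20 ± 0.16 with isoproterenol and 1.62 ± 0.30 in controls (SD, n = 3 each), a change of -1.43 ± 0.21 (SE, 95% CI -1.93 to -0.93) or a 2.69-fold lower level with isoproterenol. The change of Trim63 was -1.61 within slide 1. It missed the threshold when control replicate 2 was left out, at -1.29 with an adjusted p of 0.0536 in limma, and when control replicate 3 was left out, at -1.41 with an adjusted p of 0.0614 in limma.

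Neither other muscle RING-finger gene passed the threshold. Trim54 had levels of 5.70, 6.33 and 6.38 with isoproterenol and 5.72, 5.88 and 5.96 in controls. The isoproterenol array on slide 1 was level with the lowest control, and both isoproterenol arrays on slide 2 were above all controls. The change of Trim54 was 0.29 ± 0.23 (SE, n = 3 each, 95% CI -0.26 to 0.83), but -0.15 within slide 1 and -0.14 after quantile normalization. Without isoproterenol replicate 1 it was 0.51 and passed the threshold, with an adjusted p of 0.0223 in limma, and treatment and slide then cannot be told apart.

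Trim55 had levels of -1.25, -1.28 and -1.16 with isoproterenol and -0.58, -0.96 and -1.12 in controls. Its groups did not overlap, though the highest isoproterenol array and the lowest control array nearly met. The change of Trim55 was -0.35 ± 0.19 (SE, n = 3 each, 95% CI -0.80 to 0.11) and -0.37 within slide 1. The 3 muscle RING-finger genes thus had point estimates of -1.43, -0.35 and 0.29, and differences between their changes were not tested.

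**Figure D2:**
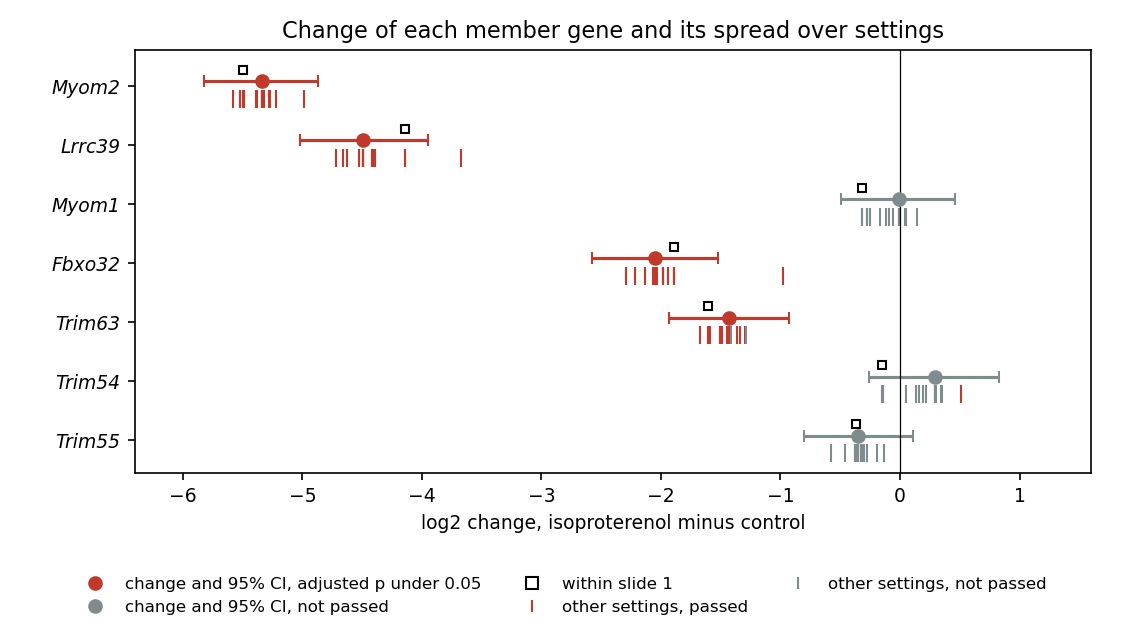
Log2 change of each measured member, isoproterenol minus control, as a point with its 95% confidence interval, an open square for the change within slide 1 and a tick for each alternative analysis, red where the threshold was passed. Every tick of Myom2, Lrrc39, Fbxo32 and Trim63 lies below 0, and the intervals of Myom1, Trim54 and Trim55 hold 0.

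Promoter sequence of Trim63, which fell, and of Trim54, which did not pass, is shown to set a ligase that fell beside a related one that did not. The stretches are at chr5:151816986-151817235 (plus strand) for Trim63 and chr6:30978476-30978725 (minus strand) for Trim54, with the same build, source and capitals as above.
Trim63: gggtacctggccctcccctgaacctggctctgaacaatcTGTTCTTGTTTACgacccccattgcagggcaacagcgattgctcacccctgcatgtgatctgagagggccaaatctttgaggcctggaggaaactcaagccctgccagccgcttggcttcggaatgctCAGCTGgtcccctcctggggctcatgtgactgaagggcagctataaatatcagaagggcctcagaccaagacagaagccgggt
Trim54: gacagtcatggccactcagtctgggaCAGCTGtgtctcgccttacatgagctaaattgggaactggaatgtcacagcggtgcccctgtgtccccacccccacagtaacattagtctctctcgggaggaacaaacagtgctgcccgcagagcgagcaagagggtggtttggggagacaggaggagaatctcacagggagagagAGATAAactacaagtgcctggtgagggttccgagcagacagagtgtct
Trim63 had a FoxO match on the minus strand at -205 to -199, directly after a TGTTCT half-site at -211 to -206, and CAGCTG at -83 to -78. Trim54 had CAGCTG at -224 to -219 and AGATAA at -48 to -43. The FoxO motif was present in 3.21% of all promoters, CAGCTG in 12% and AGATAA in 10.3%. None of the 4 promoters printed held the half-site TGACG, found in 18.2% of all promoters, or the half-site AGGTCA, found in 14.1%. None of these 4 held a MEF2 motif or a CArG box, found in 2.96% and 1.5%. The promoter of Myom3, whose level was not measured here, had a MEF2 match at -33 to -24. No promoter sequence of Myom2, Trim55 or Fbxo32 was available from the source used.

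Of 19 listed M-band proteins, partners of titin and other genes, 12 were tested, of which 4 fell and none rose. Outside the members, 2 of 9 fell, while 5.93% of all genes fell. Ckm, the muscle creatine kinase that binds the M-band, changed by -1.96 ± 0.17 (SE, adjusted p = 0.00238 in limma) and by -1.83 within slide 1. Calcoco1, which encodes a coiled-coil coactivator and autophagy receptor, changed by -1.33 ± 0.18 (SE, adjusted p = 0.00789 in limma) and by -1.48 within slide 1, and missed the threshold without control replicate 3 (-1.22). The median change of the 9, of which not all are M-band proteins, was -0.39, against 0.07 for all genes tested. Fhl2, a LIM protein that docks enzymes to titin, had a change of 0.12, and Smpx, a small muscle protein, of -0.56, and neither passed. Without isoproterenol replicate 1, where treatment and slide cannot be told apart, 6 genes of the list fell and 2 rose.

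Among other genes of the cardiac sarcomere none fell. Of 36 genes listed, 29 were tested, of which 5 rose and 24 did not pass, with a median change of 0.42. Over all genes tested, 10.2% rose and 5.93% fell. The largest rises were in Xirp2, which encodes an actin-binding repeat protein of the intercalated disc, with 3.35 ± 0.54 (SE, adjusted p = 0.012 in limma), and in Flnc, an actin cross-linker of the Z-disc, with 1.61 ± 0.33 (SE, adjusted p = 0.0219 in limma). Within slide 1 their changes were 2.57 and 1.22, and neither passed. With slide as a block none of the 29 rose and 1 fell, and the median within slide 1 was 0.13. After quantile normalization 3 rose, 2 fell and the median was -0.01. Without control replicate 2 or 3 none passed, without isoproterenol replicate 2 or 3 there were 2 that rose, and without isoproterenol replicate 1 there were 16 that rose and 2 that fell.

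Of 41 genes listed as muscle and cardiac ubiquitin ligases or their substrate adaptors, 30 were tested, of which 7 fell, 1 rose and 22 did not pass. Outside the members, 5 of 26 fell and 1 rose, with a median of -0.08, while 5.93% of all genes fell and 10.2% rose. Asb14, an adaptor with ankyrin repeats, had levels of -5.65, -3.27 and -3.76 with isoproterenol and -1.09, -0.71 and -0.69 in controls. All isoproterenol arrays were lower, though only 1 was well above background. Asb14 changed by -3.40 ± 0.58 (SE, adjusted p = 0.0135 in limma), or by -4.82 within slide 1, and by -1.42 with normexp correction, where it missed the threshold.

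Klhl38, a kelch-repeat protein of muscle, had levels of -0.90, 0.01 and -1.12 with isoproterenol and 0.92, 2.08 and 1.70 in controls. It changed by -2.24 ± 0.40 (SE, adjusted p = 0.0152 in limma) and by -2.46 within slide 1, where the adjusted p in limma was 0.059. Klhl41, a kelch-repeat protein of the sarcomere, rose by 1.01 ± 0.21 (SE, adjusted p = 0.023 in limma), or 0.66 within slide 1 with an adjusted p of 0.0731 in limma. With slide as a block 5 of the 30 ligase genes fell and none rose, and without control replicate 2 or control replicate 3 the number that fell was 2. Asb14, Klhl38 and Klhl41 each missed the threshold in both of those fits. Asb11, also on the list and outside the members, changed by -2.18 ± 0.28 (SE) and passed in both. Without isoproterenol replicate 1, 11 fell and 8 rose.

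Of the SCF core subunits and ubiquitin-conjugating and deubiquitinating enzymes, 28 of 34 listed were tested, of which 4 rose and none fell. Over all genes tested, 10.2% rose and 5.93% fell. Usp14, a deubiquitinase of the proteasome, rose by 1.1 ± 0.25 (SE, adjusted p = 0.0313 in limma), and Ube2n, a conjugating enzyme for lysine-63 chains, by 0.88 ± 0.19 (SE, adjusted p = 0.0268 in limma). None of the 28 passed with slide as a block or after quantile normalization. The median was 0.20, and -0.02 within slide 1. The count of rises was 1 without control replicate 1, 0 without any one of 4 other arrays (control replicates 2 and 3 and isoproterenol replicates 2 and 3), and 13 without isoproterenol replicate 1.

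Genes linked to FoxO factors and to atrophy changed in both directions. Of 44 listed, 40 were tested, of which 7 rose, 5 fell and 28 did not pass, with a median of -0.11. Over all genes tested, 10.2% rose and 5.93% fell. Pdk4, the kinase that inhibits pyruvate dehydrogenase and a FoxO target, had levels of -4.71, -4.74 and -5.40 with isoproterenol and -1.03, -0.34 and -0.53 in controls. This was a change of -4.32 ± 0.28 (SE, adjusted p = 0.00151 in limma), with only 1 isoproterenol array well above background and -1.68 with normexp correction. Zbtb16, a zinc finger transcription factor, changed by -2.53 ± 0.35 (SE, adjusted p = 0.00825 in limma), and by -0.83 with normexp correction, and was also well above background on 1 isoproterenol array.

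Ddit4, an inhibitor of mTORC1, rose by 1.43 ± 0.24 (SE, adjusted p = 0.0131 in limma), and Bnip3, a mitophagy receptor, by 1.38 ± 0.34 (SE, adjusted p = 0.0386 in limma). Within slide 1 their changes were 1.04 and 0.60, with adjusted p-values in limma of 0.0684 and 0.113. With slide as a block 7 of the 40 fell and none rose, and after quantile normalization 10 fell and 3 rose. The FoxO genes themselves did not pass, with changes of -0.70 ± 0.19 for Foxo1, -0.01 ± 0.18 for Foxo3 and -0.11 ± 0.22 for Foxo4 (SE, n = 3 each). Foxo1 missed narrowly (adjusted p = 0.0528 in limma) and changed by -0.92 within slide 1. It passed after quantile normalization, at -0.78 (adjusted p = 0.0361 in limma). Of the other atrophy genes, Klf15, a glucocorticoid-induced factor, changed by -1.59 ± 0.20 (SE, adjusted p = 0.00677 in limma), and by -0.54 with an adjusted p of 0.163 in limma with normexp correction. Without control replicate 3 there were 2 of the list that fell and none that rose, without control replicate 2 there were 3 and none, without control replicate 1 there were 5 and 4, without isoproterenol replicate 2 there were 4 and 1, without isoproterenol replicate 3 there were 4 and none, and without isoproterenol replicate 1 there were 11 that fell and 12 that rose.

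Of 30 muscle transcription regulators listed, 24 were tested, of which 4 fell, 2 rose and 18 did not pass, with a median of 0.01. Over all genes tested, 5.93% fell and 10.2% rose. Ppargc1a, a coactivator of mitochondrial genes, had levels of -1.97, -1.71 and -1.64 with isoproterenol and 0.03, 0.24 and 0.31 in controls, a change of -1.97 ± 0.18 (SE, adjusted p = 0.00302 in limma). Hand2, a basic helix-loop-helix factor of the heart, changed by -1.92 ± 0.37 (SE, adjusted p = 0.0191 in limma) and by -1.04 within slide 1. Myocd, the serum response factor coactivator myocardin, rose by 1.41 ± 0.23 (SE, adjusted p = 0.0119 in limma) and Gata4 by 1.32 ± 0.23 (SE, adjusted p = 0.0144 in limma), which did not pass within slide 1 (0.94). With slide as a block 4 fell and 1 rose, and without control replicate 2 or 3 there was 1 that fell and none that rose. The number that fell was also 1 without control replicate 1, isoproterenol replicate 2 or isoproterenol replicate 3. Without isoproterenol replicate 1, 9 fell and 6 rose.

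**Figure D3:**
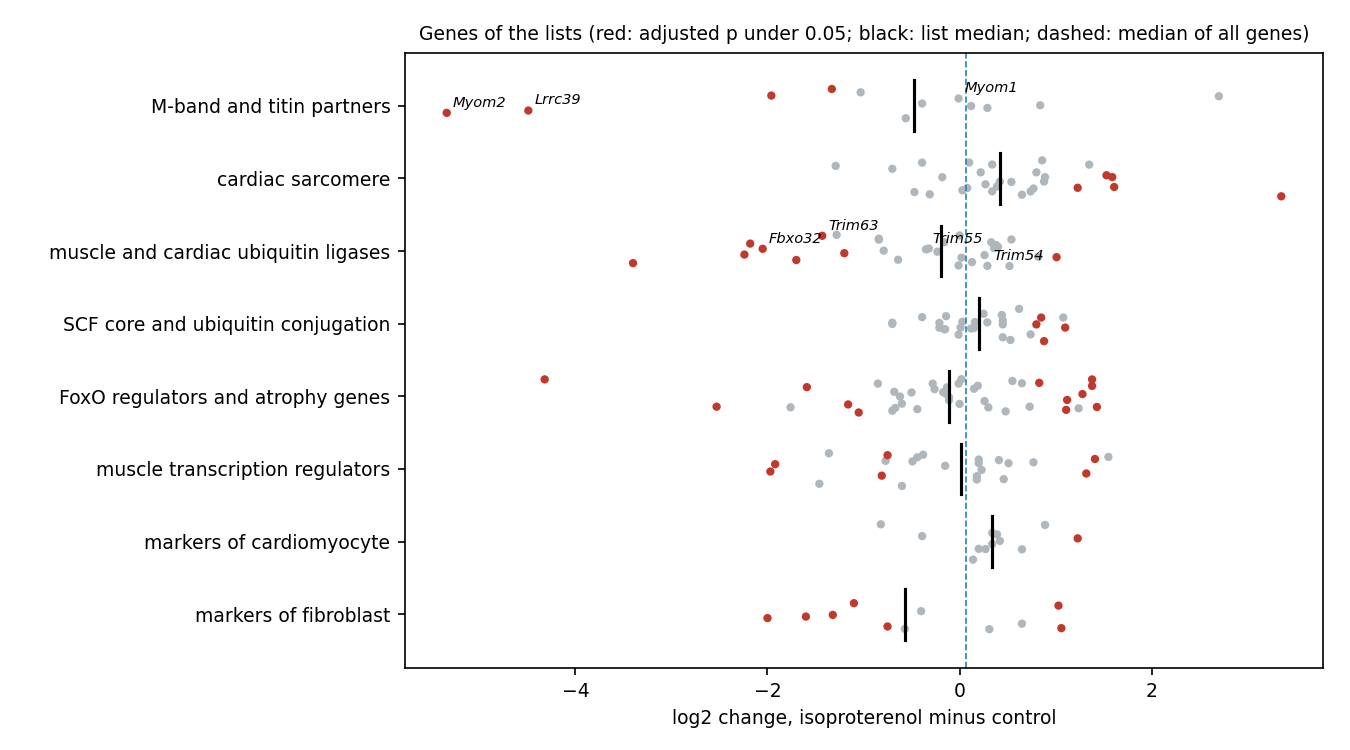
Log2 change of each tested gene, isoproterenol minus control, by gene list, 1 point per gene, red where the adjusted p was under 0.05, a black bar at the list's median and a dashed line at the median of all genes, 0.07. Myom2 and Lrrc39 are the lowest points of the M-band list, and the sarcomere list has its median at 0.42.

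Markers of other cell types were measured beside these lists, where 5.93% of all genes tested fell and 10.2% rose. A summed level is the log2 of the sum of the markers' scaled signals on an array, in which the brightest probes count most. Cardiomyocyte markers had summed levels of 11.31 to 11.97 with isoproterenol and 10.99 to 11.31 in controls; of the 12 tested, 1 rose (Myh6) and none fell, with a median change of 0.34, or 0.07 within slide 1. With slide as a block none of them rose and 2 fell (Mybpc3 and Pln), and after quantile normalization none rose, 1 fell and the median was -0.15. Of 11 fibroblast markers 5 fell (Fbln1, Lum, Postn, Col3a1 and Tcf21) and 2 rose (Ddr2 and Thy1), with summed levels of 7.06 to 7.48 with isoproterenol and 7.29 to 7.37 in controls. The median change of the fibroblast markers was -0.57, or -0.86 within slide 1 and -0.72 after quantile normalization, against 0.07 for all genes, and with slide as a block 3 fell and 1 rose. Smooth muscle and pericyte markers had 2 of 7 that rose (Acta2 and Tagln) and summed levels of 7.76 to 8.96 with isoproterenol and 6.39 to 7.22 in controls. None of these 7 passed with slide as a block, and their median was 0.18, or 0.64 within slide 1. Skeletal muscle markers had summed levels of 1.44 to 1.83 with isoproterenol and 1.56 to 1.66 in controls, with 1 of 8 that rose (Myh1). Of 7 endothelial markers 1 fell (Kdr), at 3.83 to 3.98 with isoproterenol and 3.93 to 4.10 in controls, and of 8 macrophage and leukocyte markers 1 rose (Cd14), at 5.26 to 5.83 with isoproterenol and 4.82 to 5.35 in controls. With slide as a block Cd14 did not pass. Median changes were 0.56 for skeletal muscle, -0.34 for endothelial and 0.04 for macrophage and leukocyte markers. Markers well above background on all 6 arrays numbered 9 of 11 for fibroblasts, 5 of 7 for smooth muscle and pericytes, 5 of 7 for endothelium, 6 of 8 for macrophages and leukocytes and 3 of 8 for skeletal muscle. Their part in the changes of the members was not tested.

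The genes nearest in pattern were found by the root mean square difference over the 6 arrays, after each gene's control mean was subtracted, among 19924 genes. They were picked by this distance on the same arrays, so their likeness is a description, and shared regulation was not tested. Nearest to Myom2 was Atp6ap1l, related to an accessory subunit of the vacuolar proton pump, at 0.46, and the 5 nearest genes also held Smim5 at 0.62, Lrrc39 at 0.66 and Adhfe1 at 0.67. Nearest to Lrrc39 were Slc25a34, a mitochondrial carrier, at 0.21, Tbc1d10c at 0.23, Pdk4 at 0.24, and Smim5 and Rxrg, a retinoid X receptor, both at 0.25. Slc25a34 changed by -4.24 ± 0.19 and Tbc1d10c by -4.21 ± 0.24 (SE, n = 3 each). Of these genes, Smim5, Adhfe1, Pdk4 and Rxrg were well above background on 1 isoproterenol array only, so their low levels are less certain. Around the smaller change of Trim63 lay Selenoh, a selenoprotein, at 0.07, Ptgfr, the prostaglandin F receptor, at 0.08, Abtb1 at 0.09, and Grb14, an adaptor that inhibits insulin receptor signalling, and Bdh2 both at 0.10.

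**Figure D4:**
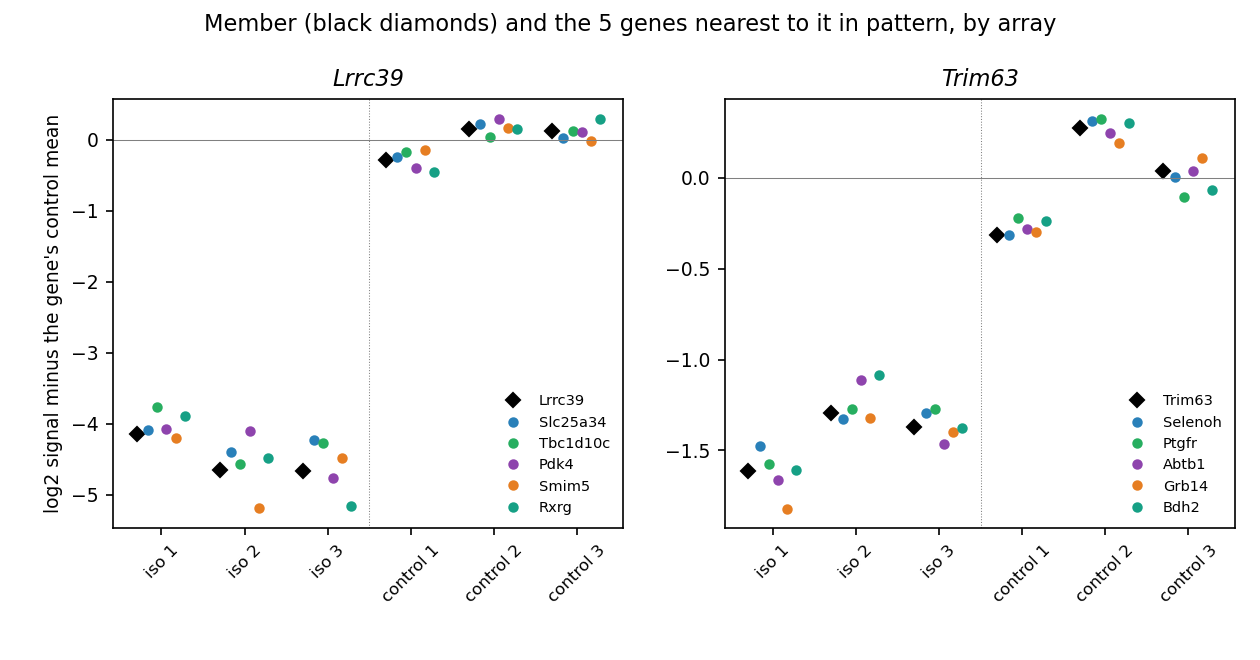
Log2 signal minus the gene's control mean on each array for Lrrc39 and Trim63 (black diamonds) and the 5 genes nearest to each (coloured points), isoproterenol arrays left of control arrays. The coloured genes were chosen for the smallest distance on these same arrays, so their nearness to the diamonds follows from the choice. Their root mean square differences were at most 0.25 for Lrrc39 and 0.10 for Trim63.

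Neighbouring genes on the chromosome were looked up in the GRCr8 gene order after the values had been seen, as the nearest measured coding gene on each side. Of 14 such genes 3 passed the threshold, which 16.1% of all genes passed. Klhl38, which lies next to Fbxo32, fell as given above but did not pass within slide 1. Trmt13, a tRNA methyltransferase gene next to Lrrc39, rose by 1.04 ± 0.19 (SE, adjusted p = 0.0152 in limma), and Pde7a, a cAMP phosphodiesterase gene near Trim55 with 1 unmeasured gene between, by 1.40 ± 0.29 (SE, adjusted p = 0.0236 in limma). Within slide 1 Trmt13 had a change of 0.78 and Pde7a of 0.78, and neither passed. The neighbours of Myom2 did not pass, with changes of 0.50 ± 0.62 for Csmd1 and 0.37 ± 0.53 for Kbtbd11 (SE, n = 3 each).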

How the data were processed

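Total RNA was measured on 6 one-colour Cy3 arrays, 3 isoproterenol and 3 control. Per the file headers, Agilent Feature Extraction 11.0.1.1 read the scans of a design of build rn4, and the deposited files hold background-subtracted intensity values for 43040 spots. The authors' deposited mRNA table holds log2 values that lie close to quantile-normalized intensities on slide 1, where 95% of values differed by no more than 0.00229 per array, but less so for isoproterenol replicates 2 and 3, where that bound was 0.46 and 0.232; the tool behind it is not given in the sources used. Its 20734 rows were matched to probes by value on the 4 arrays of slide 1 (distance under 0.05 and under 0.25 of that to the next probe), which placed 20639. RefSeq names came from a table of GRCr8, which named 13956 of 14757 RefSeq rows; 5977 Ensembl rows were left unnamed.

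Here log2 of the processed signal minus each array's 75th percentile over non-control probes was used, without outlier spots, for probes well above background on at least 3 of 6 arrays, and a gene was its brightest probe. Groups were compared with limma 3.58.1 in R 4.3.3, two-sided, without a block. The number of arrays limits the precision. The fit was tested on simulated data with independent noise and no slide effect. That run therefore does not cover the partial overlap of slide and treatment. The samples were not paired by replicate number, and the correlations of same-numbered deviations were 0.00576, 0.0519 and -0.023. The isoproterenol arrays were split over 2 slides and the controls were not. These correlations therefore cannot show whether same-numbered samples shared a culture or litter. Normexp was run on the median spot signal in place of the mean signal that had been planned. It added an offset of 50 to every spot, which weighs most on dim probes and on slide 2, where signals were lower. Alternatives covered background, scaling, the deposited table, dim probes, slide, replicate block, left-out arrays and single probes. The members, lists and motifs were chosen with earlier results of these data known. Named by rule were all members, at most the 2 genes that rose and the 2 that fell most in each list, and the 5 nearest genes in pattern of Myom2, Lrrc39 and Trim63, of which 1 is not reported here. Ckm, Calcoco1, Fhl1, Fhl2, Smpx, Asb11, the FoxO genes, Klf15, Ulk1, the marker genes named and the chromosomal neighbours were added after their values were seen.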

Additional observations from a re-analysis of the deposited data

How the results depend on the processing

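Of 19942 genes 3213 changed, and the count moved most with the samples used: 1454 with slide as a block, 1043 within slide 1, 1452 with replicate block, and 369 to 10395 over the fits that left out 1 array, the highest without isoproterenol replicate 1, where treatment and slide cannot be told apart. The main split was 2031 higher and 1182 lower (63.2% higher), against 2112 and 749 (73.8%) with normexp and 1378 and 1975 (41.1%) with the percentile taken over probes above background on all arrays. The median change of all genes was 0.07, from -0.17 to 0.37 over these settings. The members that changed numbered 3 to 5 over all alternatives, and Myom2 and Lrrc39 were past the threshold in each. The count of 5 included a rise of Trim54, without isoproterenol replicate 1. Fbxo32 could not be tested with the filter for probes above background on all arrays, which gave one of the counts of 3. Myom1 turned to 0.05 with median scaling and ranged from -0.12 to 0.14 over left-out arrays. Trim54 turned to -0.14 with quantile normalization and with the deposited table, and to -0.15 with the slide block and within slide 1. Ulk1, which fell, turned to 0.22 with normexp and its offset. Over the alternatives that kept all arrays or took slide or replicate into account, the M-band list had 4 that fell and 0 to 1 that rose, the sarcomere list 0 to 2 and 0 to 9, the ligases 5 to 9 and 0 to 3, the SCF list 0 to 1 and 0 to 7, the FoxO list 4 to 13 and 0 to 11 and the transcription regulators 2 to 7 and 1 to 2. The causes were not tested. Of 56 genes followed, 36 and 38 dropped below the threshold without control replicates 2 and 3, 20 with the replicate block, and none with the filter for probes above background on all arrays, where 43 could be tested. The number of arrays and the dim probes on slide 2 limit what can be seen.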

Other observations

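Fhl1, a LIM protein of the titin-associated part of the sarcomere, had levels of 4.79, 4.89 and 5.03 with isoproterenol and 4.29, 0.89 and 1.42 in controls, so control replicate 1 lay near the isoproterenol arrays and the other two controls far below. Its change was 2.70 ± 0.82 (SE, n = 3 each), which did not pass the threshold (adjusted p = 0.0655 in limma). It was chosen for mention after its values were seen.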
